A study of Homo sapiens with 1 sample.

Results

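A set of 9 microRNA (miRNA) arms from loci known for promoter methylation in colorectal tumours was read on 1 array of DLD-1 cells. These were hsa-miR-124-3p, hsa-miR-137, hsa-miR-9-5p, hsa-miR-9-3p, hsa-miR-129-5p, hsa-miR-129-2-3p, hsa-miR-342-3p, hsa-miR-342-5p and hsa-miR-345-5p, where hsa stands for human and is left out from here on. They were chosen by name, with an arm suffix allowed to be present or absent, and all 9 were found among the 2549 human miRNAs of the array. On the array miR-137 carries no arm suffix, and its RefSeq name is miR-137-3p. DLD-1 is an established human colorectal carcinoma line deficient in DNA mismatch repair, grown here in RPMI medium with fetal bovine serum. The only group was si-NC, cells transfected with a negative control siRNA (n = 1 array). The wider study depleted or overexpressed circLONP2, a circular RNA of the LONP2 gene, to look for miRNAs under its influence. Cells with circLONP2 depleted or overexpressed were not analysed here. With 1 array there was no comparison between groups, no biological replicate and no p-value, so each error below is technical.

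A miRNA is cut from a hairpin precursor that can release mature strands named 5p and 3p after the arm they come from, and each strand lowers the output of messenger RNAs that pair with its seed, bases 2 to 8. When CpG dinucleotides in the promoter of a miRNA gene are methylated, transcription is usually shut down and both arms are lost together. Loci of this kind have been studied in colorectal tumours as silenced brakes on growth. The targets described for them include CDK6, a cell cycle kinase, for miR-124, and KDM1A, a histone demethylase, for miR-137. In healthy tissue miR-124, miR-9, miR-137 and miR-129 are best known from neurons and their progenitors. DNA methylation was not measured in these files, so only the mature miRNA can be described, and whether a locus was methylated in these cells was not tested.

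RefSeq sequences (GRCh38.p14) were found for 8 of the 9 arms, and for miR-129-1-3p and miR-345-3p, which come from the same loci and were also on the array. They are printed 5′ to 3′ with the seed in capitals, first those whose probes stayed at background and then those that gave signal.
miR-137: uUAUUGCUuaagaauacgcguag
miR-342-3p: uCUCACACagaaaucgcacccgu
miR-342-5p: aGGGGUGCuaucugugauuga
miR-9-5p: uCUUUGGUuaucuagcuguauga
miR-9-3p: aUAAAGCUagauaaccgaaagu
miR-129-5p: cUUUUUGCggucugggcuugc
miR-129-2-3p: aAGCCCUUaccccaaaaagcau
miR-129-1-3p: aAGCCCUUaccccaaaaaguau
miR-345-5p: gCUGACUCcuaguccagggcuc
miR-345-3p: gCCCUGAAcgaggggucuggag
Only miR-129-2-3p and miR-129-1-3p shared a seed among these 10 sequences, and for the 8 arms of the set no further name in the RefSeq table had the same seed.

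The loci differ in how many copies can supply a mature strand, and for miR-124, without a sequence, copies were not counted. Both arms of miR-9 are present without change in 3 hairpins, MIR9-1 (chr1:156420341-156420429, minus strand), MIR9-2 (chr5:88666853-88666939, minus strand) and MIR9-3 (chr15:89368017-89368106, plus strand), each within the span of a host transcript of the same name. The signal of miR-9 therefore cannot be assigned to 1 of them. MIR137 (chr1:98046070-98046171, minus strand) lies within MIR137HG. MIR342 (chr14:100109655-100109753, plus strand) lies within EVL, a regulator of the actin cytoskeleton, and MIR345 (chr14:100307859-100307956, plus strand) lay in the span of no other gene. The miR-129 hairpins are given with their mature arms in capitals, because the 5p strand is the same in both while the 3p strands differ.
MIR129-1: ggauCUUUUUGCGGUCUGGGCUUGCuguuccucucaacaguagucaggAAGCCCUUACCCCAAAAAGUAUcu
MIR129-2: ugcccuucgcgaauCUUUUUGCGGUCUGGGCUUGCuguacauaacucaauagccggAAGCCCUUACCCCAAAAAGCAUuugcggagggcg
MIR129-1 (chr7:128207872-128207943) and MIR129-2 (chr11:43581394-43581483) are both on the plus strand, within the spans of LOC124901744 and HSD17B12. The 3p strands are identical at 21 of 22 bases and differ by C20U, counted from the 5′ end of miR-129-2-3p with its base given first.

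The scanner software called 5 of the 9 arms detected (55.6%), against 44.4% of all 2549 miRNAs on the array. Nothing particular to the set is read from a share over so few arms. The detected arms were miR-9-5p, miR-9-3p, miR-129-5p, miR-129-2-3p and miR-345-5p, while miR-124-3p, miR-137, miR-342-3p and miR-342-5p were not. The label of the set as silenced thus does not describe the 5 detected arms on this array. Of these, however, miR-129-5p had only 3 and miR-345-5p only 6 of 20 spots well above background. The other 4 were not detected, like most miRNAs of the array, and whether they were silenced was not tested. Fewer cells making a miRNA and less of it per cell cannot be told apart in bulk RNA. Counted by locus with every arm on the array, the 40 spots of MIR124, the 20 of MIR137 and the 40 of MIR342 held 0 spots well above background. For MIR9 all 40 of 40 spots were well above background, for the MIR129 loci 26 of 60, and for MIR345 6 of 40.

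Each arm had 20 spots spread over 2 to 4 probes, and each spot gives a background-subtracted signal that can fall below 0. The software marks a spot as well above background, which on this array began at a signal of 13.1. The 1000 negative control spots had a median of 0.0894, a 95th percentile of 4.79, a 99th percentile of 16.1 and a highest value of 45.4, and 1.40% of them carried that mark. The software calls a miRNA detected when the signal of at least 1 of its probes is more than 3 times its error. The total gene signal is the sum over those probes and is on another scale than single spots.

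**Figure D1:**
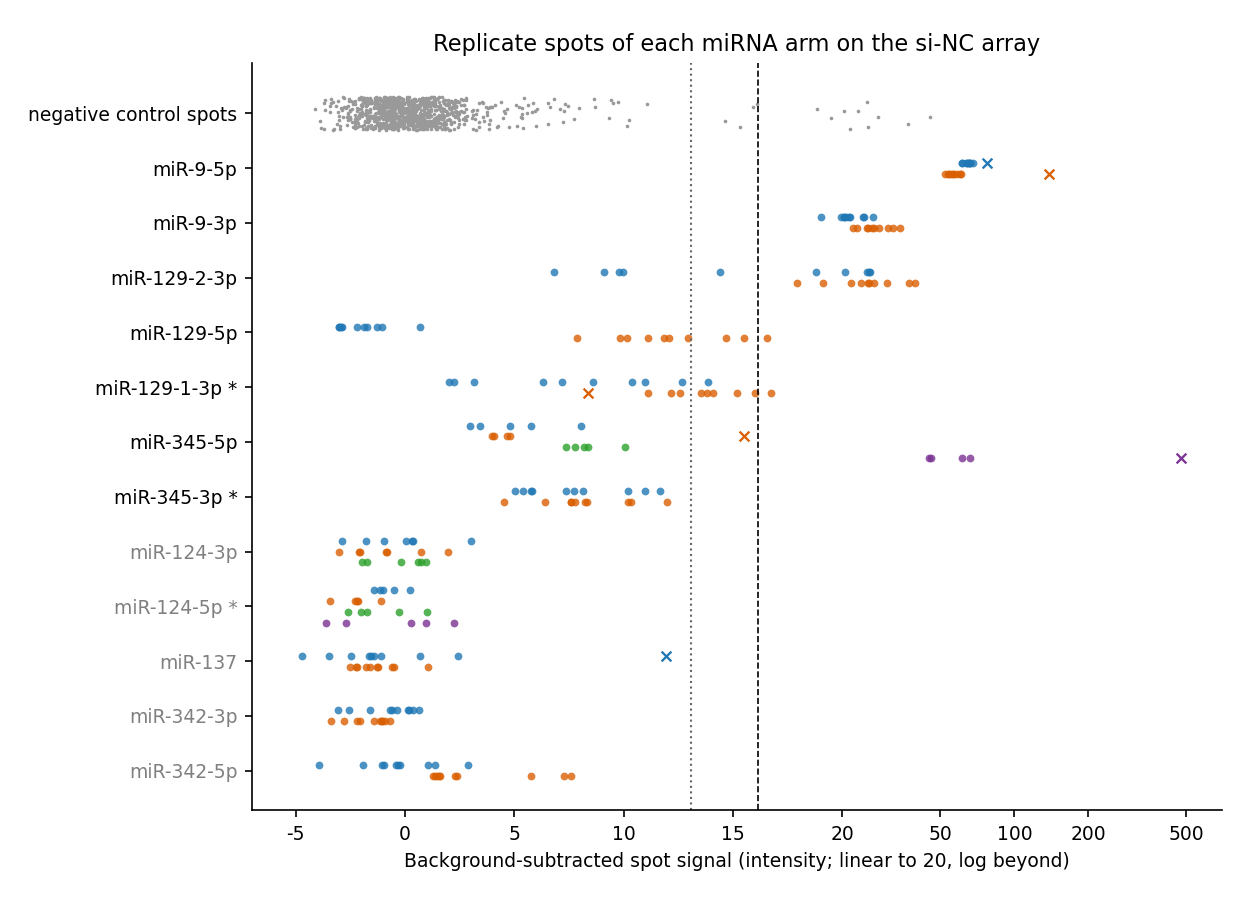
Background-subtracted signal of each replicate spot (horizontal axis, linear to 20 and logarithmic beyond) for 12 miRNA arms and 1000 negative control spots of the si-NC array. Colours separate the probes of an arm, crosses are outlier spots, an asterisk marks an arm of the same loci outside the 9, grey names were not detected, the dashed line is the 99th percentile of negative control spots (16.1) and the dotted line is the lowest signal well above background (13.1). All spots of miR-9-5p and miR-9-3p lie right of both lines, and no spot of miR-124, miR-137 or miR-342 reaches either.

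Among the arms that stayed at background, miR-124-3p, the miRNA most typical of neurons, had spots from -3.04 through a median of -0.51 to 3.04 (20 spots, 3 probes). Of these, 11 were below 0. Its partner miR-124-5p ran from -3.61 through -1.28 to 2.24, with 15 of 20 spots below 0 and 0 well above background. Neither arm of miR-124 therefore gave a signal on any of 7 probes.

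For miR-137, whose best known targets include KDM1A, the spots ran from -4.72 through -1.47 to 11.9, and 16 of 20 were below 0. The spot at 11.9 was marked as an outlier of its probe, and without it the highest was 2.43. That spot too was under the level of 13.1 at which spots became well above background. The partner miR-137-5p was not on the array.

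MIR342 was read through both of its arms. The spots of miR-342-3p had a lowest value of -3.41, a median of -1.06 and a highest of 0.63, so that 16 of 20 were below 0. Those of miR-342-5p had a lowest value of -3.94, a median of 1.36 and a highest of 7.601, with 7 below 0. The probes of miR-342-5p were not alike. The first averaged -0.36 ± 1.87 (SD, 10 spots) and the second 3.25 ± 2.57 (SD, 10 spots), with all spots of the second above 0. At 1.23 times its error the second was the highest of the 9 probes of undetected arms in the set, and still short of 3.

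Over these 4 arms together, 50 of 80 spots were below 0 (62.5%), against 47.8% of negative control spots. The arms were uneven, with 7 of 20 for miR-342-5p, 11 for miR-124-3p and 16 each for miR-137 and miR-342-3p. The mean of the second miR-342-5p probe was exceeded by 7.8% of negative control spots. The median of the 80 spots was -0.75, and that of the negative control spots, which match no human miRNA, 0.0894. This sets a limit rather than a level. On the scale of the total gene signal, 3 times the error of a probe was 1.43 to 1.45 for miR-137 and miR-342. For miR-124-3p, whose probes have fewer spots, it was 0.86 to 1.00. These errors were taken at background and were larger for brighter probes, so a call needed somewhat more. A miR-345-3p probe of 10 spots at 1.43 had an error of 0.50 and stood at 2.85 times it, short of 3. Amounts under those limits were not detectable on this array.

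**Figure D2:**
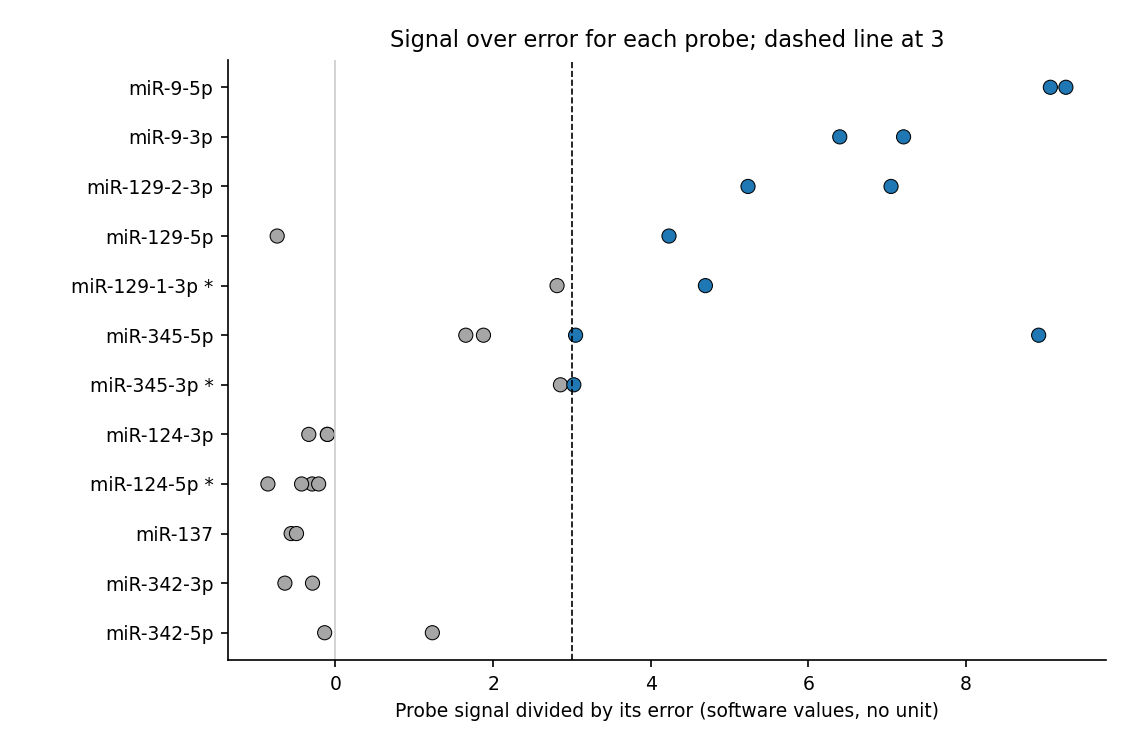
Signal of each probe divided by its error, both from the scanner software and without unit (horizontal axis), for the 12 arms of the loci, an asterisk marking arms outside the 9. Blue probes pass the dashed line at 3 and grey probes do not. The probes of miR-9 lie between 6.40 and 9.26, those of miR-124, miR-137 and miR-342 between -0.86 and 1.23, and miR-345-3p was called on a probe at 3.02.

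Signal was clearest for miR-9, which acts in neural progenitors in normal tissue. Its 5p strand had spots from 52.4 through a median of 61.2 to 138.6, and its 3p strand from 19.04 through 24.3 to 34.2. All 20 spots of each strand exceeded 16.1, the 99th percentile of the negative controls. The total gene signal was 22.1 ± 1.71 (error from the scanner software) for miR-9-5p and 9.002 ± 0.93 for miR-9-3p.

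The probes of miR-9 were close to each other. For miR-9-5p they averaged 64.5 ± 2.21 and 56.5 ± 2.90 (SD, 9 spots each), a difference of 0.19 ± 0.03 on the log2 scale (SE from replicate spots). Each of these probes had an outlier spot, at 77.2 and 138.6. For miR-9-3p the means were 21.8 ± 2.43 and 27.4 ± 3.90 (SD, 10 spots each), which is a difference of 0.32 ± 0.08 on the log2 scale. Both strands were thus seen by every probe, and the gap between probes exceeded the SE of replicate spots. With outlier spots kept, the difference for miR-9-5p was 0.089 ± 0.13, within its SE.

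The 3 strands of the miR-129 loci were all called detected, and none as evenly as miR-9. For miR-129-2-3p, which only MIR129-2 encodes, the spots ran from 6.81 through 22.8 to 39.5 and 16 of 20 were well above background. Its total gene signal was 7.94 ± 0.91. The first probe averaged 16.6 ± 7.55 and the second 26.8 ± 7.19 (SD, 10 spots each), a difference of 0.80 ± 0.26 on the log2 scale. The spots of the first probe were spread widely, with 4 between 6.81 and 10.0 and 6 from 14.4 to 26.0.

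The strand shared by both hairpins, miR-129-5p, was called on 1 of its 2 probes. That probe averaged 12.3 ± 2.72 (SD, 10 spots) and the other -1.93 ± 1.17, with no overlap between their spots. Of the 20 spots 3 were well above background and 1 exceeded 16.1. The total gene signal of 2.24 ± 0.53 carried an error of 23.6%. The paralogous strand miR-129-1-3p was at 2.54 ± 0.54, with spots from 2.03 through 11.6 to 16.7 and 7 of 20 well above background. A probe for 1 of the 3p strands could also bind the other, from which it differs by C20U, and this was not tested.

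Detection of miR-345-5p rested mainly on 1 of 4 probes. The fourth probe averaged 54.6 ± 10.6 (SD, 4 spots, an outlier spot at 477 left out). The other 3 averaged 5.00 ± 2.03 (5 spots), 4.38 ± 0.41 (4 spots, an outlier at 15.5 left out) and 8.35 ± 1.03 (5 spots). Every spot of the other 3 was below all spots of the fourth. The first 2 were under 3 times their error and had 1 spot well above background between them, the outlier, so no ratio between probes is given. The total gene signal was 5.76 ± 0.61, of which the fourth probe gave 4.99.

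Its partner miR-345-3p was called with the smallest margin. The spots ran from 4.54 through 7.75 to 11.99, and 0 of 20 were well above background. Its probes averaged 7.81 ± 2.42 and 8.31 ± 2.12 (SD, 10 spots each), and stood at 2.85 and 3.02 times their errors. The call thus depended on 1 probe just past 3, and the total gene signal was 1.52 ± 0.50. All 20 spots were nonetheless above 0, as were all 20 of miR-345-5p, whereas 47.8% of negative control spots were below 0.

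Levels were also expressed as log2 units from an array reference, the 75th percentile among spots of the miRNAs detected (a signal of 143). There miR-9-5p had a level of -1.24 ± 0.06 (SD among spots of the same probe, n = 18 spots). The values were -2.55 ± 0.18 for miR-9-3p, -2.85 ± 0.57 for miR-129-2-3p, -2.90 ± 0.22 for miR-345-5p and -3.57 ± 0.33 for miR-129-5p, over the probes past 3 times their error. The value of miR-345-5p averages probes with mean signals of 54.6 and 8.35, so it describes neither. Its SD is taken within each probe and leaves that gap out. All 5 detected arms were thus below that reference, as most spots of detected miRNAs are by construction. In total gene signal the median of detected miRNAs was 12.5. There miR-9-5p, at 22.1, was above the median and the other detected arms of the set were below it. With the percentile taken from every miRNA spot, a signal of 26.3, miR-9-5p alone was above it, at 1.20, and the others were at -0.11 (miR-9-3p), -0.41 (miR-129-2-3p), -0.46 (miR-345-5p) and -1.13 (miR-129-5p). After normexp background correction with an offset of 50, which draws dim spots toward the reference, the levels were -0.75 for miR-9-5p, -1.28 for miR-9-3p, -1.34 for miR-129-2-3p, -1.27 for miR-345-5p and -1.52 for miR-129-5p. The size of these levels therefore depends on the processing, while all 5 were below the reference of detected miRNAs with and without normexp. Probes differ in how brightly they bind, so the values give no order of abundance.

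The deposited processed values, log2 and quantile normalized, split the arms in the same way. Since their floor restates the flag of the software, that split adds no support. They were 4.61 for miR-9-5p, 3.24 for miR-9-3p, 3.03 for miR-129-2-3p and 2.51 for miR-345-5p. For miR-129-5p, miR-129-1-3p and miR-345-3p the value was 2.3236, just above the floor of 2.3219 held by the 4 undetected arms and miR-124-5p. The floor lay within 1 log2 unit of every detected arm of the set except miR-9-5p, which leaves a fall in the others little room in that table.

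Stricter rules left fewer arms. With 1 probe required to have 50% or more well-above spots, 4 arms passed, without miR-129-5p, where 37.9% of all miRNAs passed. The same 4 had a brightest probe with its median spot over 16.1, a rule that 34.8% of all miRNAs passed. When that 50% was asked of every probe, miR-9-5p, miR-9-3p and miR-129-2-3p remained, 3 of 9 against 29.4% of all miRNAs. None of the 4 undetected arms was called by any of the 6 rules. The rules on 3 times the total error and on the deposited floor restate the flag, so they add no support.

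**Figure D3:**
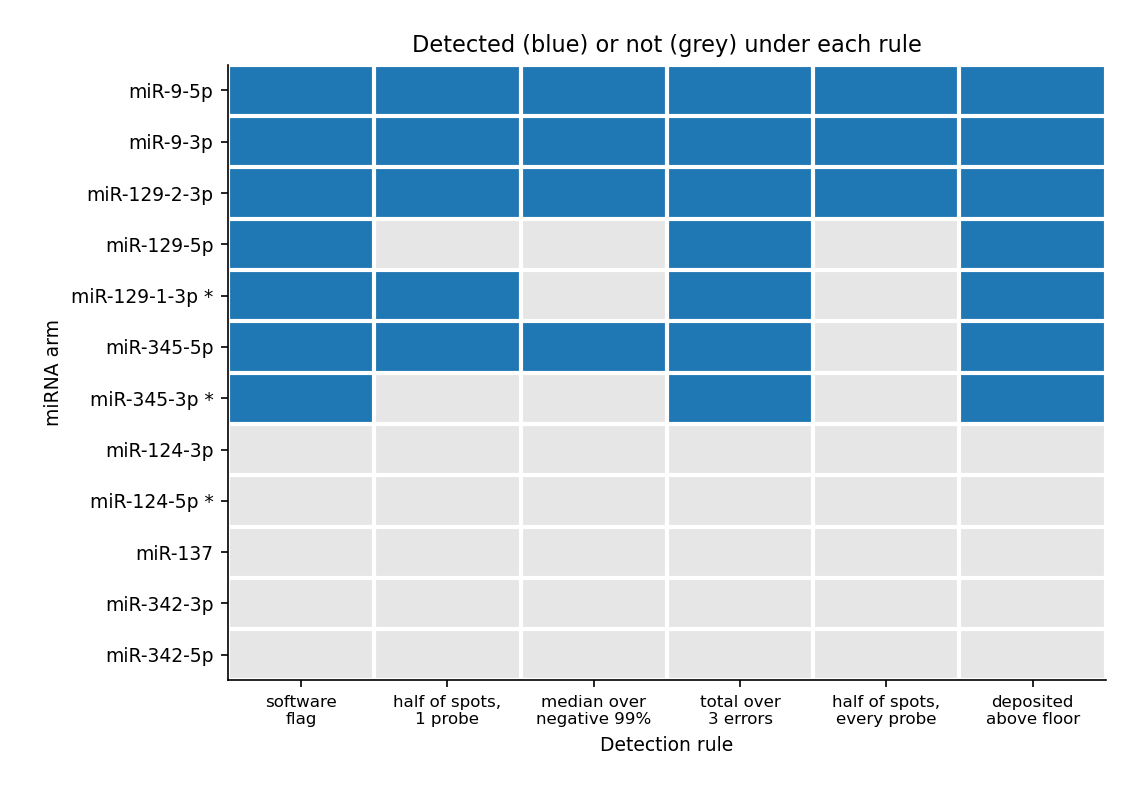
Detection of the 12 arms of the loci (vertical axis, an asterisk marking arms outside the 9) under 6 rules (horizontal axis), with blue for detected and grey for not detected. The miR-9 strands and miR-129-2-3p are blue under all 6, miR-129-5p and miR-345-3p under 3, and the arms of miR-124, miR-137 and miR-342 under 0. Those 3 are the software flag and the rules that restate it, total over 3 errors and deposited above floor.

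Other miRNAs from loci described as methylated in colorectal tumours were read for context, as a list of 18. Of these 13 were detected (72.2%), against 44.4% of all miRNAs. The p53 targets miR-34a-5p and miR-34b-5p were at 542 ± 38.4 and 215 ± 15.3 and miR-34b-3p was at 26.6 ± 2.11, whereas miR-34c-5p and miR-34c-3p were not detected although MIR34B and MIR34C are made as 1 transcript. The signal of miR-148a-3p, which targets the DNA methyltransferase DNMT1, was 1280 ± 90.6. That of miR-203a-3p, a miRNA of differentiating epithelium, was 628 ± 44.5, and that of the endothelial miR-126-3p was 123 ± 8.75.

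The paired miR-132-3p and miR-212-3p were at 20.2 ± 1.59 and 138 ± 9.78, and the clustered miR-195-5p and miR-497-5p at 178 ± 16.03 and 7.05 ± 0.85. The remaining detected entries were miR-149-5p at 40.6 ± 3.05, miR-1247-5p at 9.59 ± 1.01 and miR-1237-3p at 4.33 ± 0.74. The muscle miRNAs miR-1-3p and miR-133a-3p and miR-941 were not detected. Spots well above background numbered 0 of 20 for each of these 3 and for both strands of miR-34c.

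Since miR-124, miR-9, miR-137 and miR-129 are neural, 12 other neural-enriched miRNAs were read in the same way. Detected were 6 of 12 (50%), against 44.4% of all miRNAs, namely miR-7-5p at 2746 ± 196, miR-128-3p at 472 ± 33.6, miR-487b-3p at 165 ± 12.5, miR-219a-5p at 154 ± 10.9, miR-135a-5p at 26.4 ± 2.004 and miR-153-3p at 2.67 ± 0.55. Not detected were miR-138-5p, miR-218-5p, miR-219a-2-3p, miR-383-5p, miR-488-3p and miR-323a-3p. Nothing particular to the list is read from a share so near that of the array. As a check of the labelled tissue, 10 of 10 miRNAs typical of colon epithelium were detected (100%, against 44.4% of all miRNAs). They ran from 319 ± 23.7 for miR-194-5p to 26585 ± 1894 for miR-10a-5p. Of 7 blood markers 4 were detected (57.1%, against 44.4% of all miRNAs), with signals of 21.5 to 695.

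**Figure D4:**
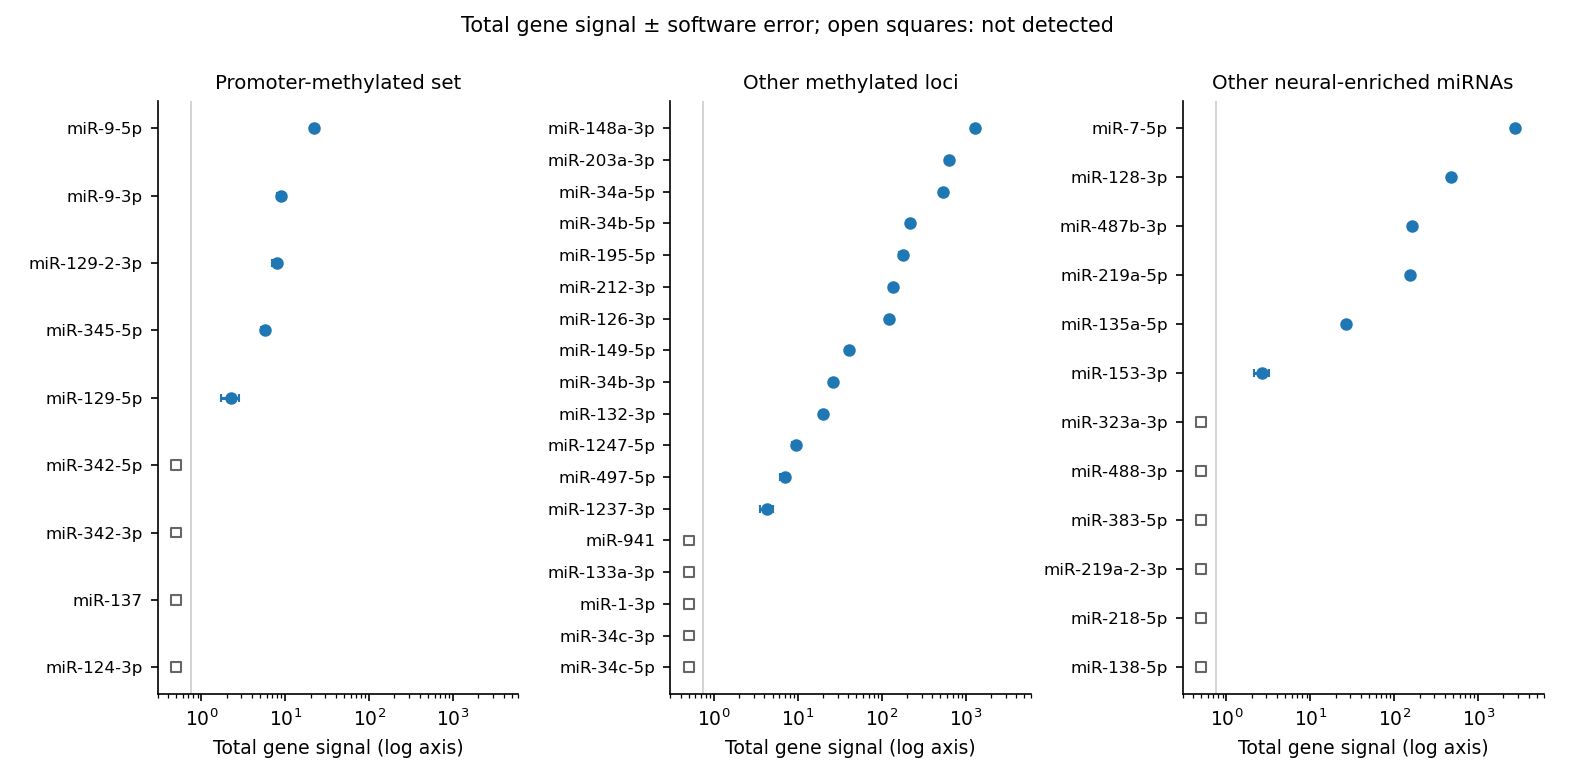
Total gene signal with the error of the scanner software (horizontal log axis, software units) for the 9 arms (left), 18 other miRNAs of loci methylated in colorectal tumours (middle) and 12 other neural-enriched miRNAs (right). Open squares left of the grey line were not detected and have no measured level. Detected arms of the set lie between 2.24 and 22.1, and since probes differ in brightness the position of a point is not its abundance relative to another.

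Promoter sequence was looked at because methylation acts on CpG dinucleotides. In a table of 35116 RefSeq windows of 300 bases, from 250 before to 50 after a gene start, the median window held 14 CG pairs. The first EVL window, for the locus whose miR-342 arms were at background, held 33 (17.2% of all windows had as many), at chr14:99971172-99971471 on the plus strand. The window of SLC25A29, a mitochondrial amino acid carrier, held 47 (2.41% of all windows had as many), at chr14:100306395-100306694 on the minus strand, and ended 1165 bases from MIR345, whose arms gave signal. Both are printed 5′ to 3′ with each CG in capitals, to set a locus at background beside a locus with signal.
EVL: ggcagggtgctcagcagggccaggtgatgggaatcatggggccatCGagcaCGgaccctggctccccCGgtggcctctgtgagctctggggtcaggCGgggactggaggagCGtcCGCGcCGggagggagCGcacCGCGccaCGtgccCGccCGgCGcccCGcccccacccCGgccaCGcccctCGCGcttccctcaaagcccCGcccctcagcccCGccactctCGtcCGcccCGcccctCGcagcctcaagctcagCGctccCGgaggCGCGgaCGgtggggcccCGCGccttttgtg
SLC25A29: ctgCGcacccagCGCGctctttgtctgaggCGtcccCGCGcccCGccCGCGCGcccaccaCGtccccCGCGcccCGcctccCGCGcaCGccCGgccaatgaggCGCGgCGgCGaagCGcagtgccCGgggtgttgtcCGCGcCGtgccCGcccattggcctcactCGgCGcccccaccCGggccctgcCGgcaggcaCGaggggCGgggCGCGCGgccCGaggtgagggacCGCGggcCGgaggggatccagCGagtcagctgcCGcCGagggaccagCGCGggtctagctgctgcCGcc
For MIR137, at background, the window of MIR137HG held 9 CG pairs and the nearest window, that of LOC124904228 at 317 bases, held 33. For MIR342, also at background, the nearest window was that of LOC124903381 at 22966 bases, which held 10. The EVL window lies farther away than that. No window was read for MIR124, for which no sequence was found. For the hairpins that can supply miR-9, the MIR9-1HG window held 24, those of MIR9-2HG 7, 8 and 18, and those of MIR9-3HG 13, 31, 21 and 32. Near the miR-129 hairpins, the window of LOC124902807, which overlaps MIR129-2, held 26 and that of LOC124901744, nearest to MIR129-1, held 9. Windows above and below the median of 14 were thus found both for loci at background and for hairpins of the detected arms, at unlike distances. The count does not say whether any CG pair was methylated. RefSeq gives EVL a second window with 3 CG pairs, and which start was used in these cells was not measured.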

How the data were processed

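MiRNA was measured in 1 sample of DLD-1 cells given a negative control siRNA, on 1 single-colour Agilent array. Labels name Cyanine 3-pCp and T4 RNA ligase for labelling, whereas the methods of the study describe labelled cDNA, and which was used is not settled. The scanner intensity came, per the file headers, from Feature Extraction 11.0.1.1 and a design on hg19, and 2 of 9 quality metrics, both for spike-in signals, were out of range. The deposited intensity is background-subtracted, with flags (0 or 1) and errors from the software, and not normalized between arrays. The authors also deposited log2 values, quantile normalized in GeneSpring. Their scale and floor, the log2 of 5, were found from the values.

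Detection was the flag of the software. Control spots were left out, as were outlier spots, which were kept in spot ranges and in counts of spots. For levels, log2 signal of spots on probes past 3 times their error was taken relative to an array reference, the 75th percentile among spots of the miRNAs detected. A log2 difference between probes was given where both probes had at least 50% of spots well above background. Alternatives were 5 other detection rules, outlier spots kept, normexp (offset 50, on median spot signal), another percentile, deposited values and no filter on dim probes. Python 3.11.15 (numpy 2.4.6, pandas 2.3.3, matplotlib 3.10.9), R 4.3.3 and limma 3.58.1 were used, and the spot calculations were tested on simulated data. The single array limits the precision.

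Every arm of the set and of the same loci is named, with the detected entries of both other lists and the names of the rest. The members and lists were chosen with earlier results of these data known. Sequences and gene spans are from RefSeq on GRCh38.p14, a later build than that of the array.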

Additional observations from a re-analysis of the deposited data

How the results depend on the processing

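Of 49 alternative values over 12 results, 28 stayed within their limits. Part of these could not have moved, so the share does not measure stability. Detected arms of the set fell from 5 to 3 where every probe had to be well above background. Detected partner arms of the same loci, 2 of 3, fell to 1 under the rule on spots of 1 probe and to 0 under the rules on negative control spots and on every probe. By construction, these partner counts rest on miR-129-1-3p and miR-345-3p, which have few or no spots well above background. Counts for the other methylated loci and for neural-enriched miRNAs stayed within 1.5 times under every rule. The rules on 3 times the total error and on the deposited floor restate the flag of the software and say nothing about stability. The level of miR-9-5p, -1.24 against the 75th percentile among spots of the miRNAs detected, became 1.20 when that percentile came from every miRNA spot, a lower reference. Of 20 alternative levels 13 moved beyond the SD of replicate spots, and of 9 alternative differences between probes 4 moved beyond their SE. With the percentile from every miRNA spot only the reference changed, which shifts all levels alike. What caused the other moves was not tested. The differences that stayed were fixed in advance. Without the filter on dim probes the same probes were used, and miR-9-3p and miR-129-2-3p had no outlier spots to keep. With outlier spots kept, the levels of these 2 arms and of miR-129-5p could change only through the reference. Low signal over background limits miR-129-5p, miR-129-1-3p and miR-345-3p, whose errors were 23.6%, 21.3% and 33.1% of their total gene signal. No paired analysis was possible because there is 1 array.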
